A study of Mus musculus with 11 samples.

Results

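The clustered histone genes are the rows of a deposited mouse liver count table whose gene symbol starts with Hist1h, Hist2h, Hist3h or Hist4h, and 47 of the 19207 genes in the table are of this kind. They comprise 5 linker histone H1 genes, 7 H2A, 12 H2B, 10 H3 and 13 H4 genes. On mm10, 41 of them lie on chromosome 13, where 14 sit in a first stretch (21715763 to 22043676), 26 in a second stretch (23531050 to 23764358) and Hist1h2al apart from both. Another 4 lie on chromosome 3, Hist3h2a lies on chromosome 11 and Hist4h4 on chromosome 6. The study sequenced liver RNA of C57BL/6 mice, either wild type or Hmgb2-/- (knockout), given oil, the usual carrier, or carbon tetrachloride (CCl4), a solvent that injures hepatocytes. The 4 groups were wild type after oil (WT_Oil, libraries 1, 2 and 3), wild type after CCl4 (WT_CCL4 4, 5 and 6), Hmgb2-/- after oil (KO_Oil 11 and 12) and Hmgb2-/- after CCl4 (KO_CCL4 24, 25 and 15). The titles of KO_CCL4 24 and 25 carry the letter E where those of all other libraries carry S, and what the letters stand for is not given in the sources used here. Sex, age, CCl4 dose and schedule, the time of collection and the part of Hmgb2 that the knockout removes are likewise not given, nor whether each library came from its own mouse, so p-values measure only the spread between these libraries.

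Histones wrap DNA into nucleosomes, of which H2A, H2B, H3 and H4 form the core while H1 binds the linker between them. The clustered genes are mostly transcribed in S phase, when new DNA has to be packed, and their mRNAs usually end in a stem-loop and not in a poly(A) tail. Some of them, among them Hist1h2bc, Hist1h1c and Hist2h2be, are also known to make polyadenylated mRNA in cells that do not divide, and most hepatocytes of an adult liver are at rest. The labels' protocol names a total RNA kit, so transcripts without a poly(A) tail may be in the libraries. The design text speaks of capped RNA instead, and which of these applies was not settled.

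The stem-loop is bound by the protein Slbp and marks these transcripts. The 16-base histone stem-loop motif was searched in the GENCODE M21 transcripts of the 45 members found there, and 30 members held a match, here shown with the 4 loop bases in capitals. The forms are given because they separate H4 from the other classes.
Hist1h1c and 14 others of H1, H2A, H2B and H3: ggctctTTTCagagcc
Hist1h3e and 4 others of H2B and H3: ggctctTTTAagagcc
Hist2h2ac: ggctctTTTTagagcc
Hist1h4h and 6 others, all H4: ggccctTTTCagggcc
Hist1h4i and Hist2h4: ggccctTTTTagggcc
All 9 H4 members with a match had a stem of ggccct, and all 21 members of the other classes had ggctct. A match was present in 3 of 5 H1, 5 of 7 H2A, 6 of 10 H2B, 7 of 10 H3 and 9 of 13 H4 members. No match means only that these letters were not in the annotated transcript.

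Promoters of 41 of the 47 members were found in RefSeq (GRCm38.p6), and 4 motifs were searched on both strands of the 250 bases before the start. CCAAT was present in 31 of the 41 members and in 34.5% of all 27025 promoters, and TATAAA in 23 of 41 against 13%. By class, CCAAT was present in 5 of 5 H1, 6 of 6 H2A, 10 of 10 H2B and 7 of 8 H3 promoters, and in 3 of 12 H4 promoters. ATTTGCAT, the octamer known from H2B promoters, was in 5 of 6 H2A and 4 of 10 H2B promoters and in none of the others (1.61% of all promoters). AAACACA, known as the H1 box, was in 4 of 5 H1 promoters and in 6 of 41 overall (6.22% of all promoters). For 2 linker and 2 H4 genes, of which the first of each pair rose after CCl4 in wild type and the second did not pass the test, the 150 bases before the start are shown on the gene's own strand, with each match of the 4 motifs, read on either strand, in capitals. They lie on chromosome 13 at chr13:21780626-21780775 (Hist1h1b, minus strand), chr13:23738657-23738806 (Hist1h1c, plus), chr13:23761250-23761399 (Hist1h4a, minus) and chr13:23530894-23531043 (Hist1h4h, plus).
Hist1h1b: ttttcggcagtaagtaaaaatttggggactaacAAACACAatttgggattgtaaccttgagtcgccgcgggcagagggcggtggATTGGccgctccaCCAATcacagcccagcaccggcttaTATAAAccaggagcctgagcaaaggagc
Hist1h1c: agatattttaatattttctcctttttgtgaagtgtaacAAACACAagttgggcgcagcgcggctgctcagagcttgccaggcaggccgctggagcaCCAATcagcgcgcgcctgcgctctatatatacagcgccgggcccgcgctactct
Hist1h4a: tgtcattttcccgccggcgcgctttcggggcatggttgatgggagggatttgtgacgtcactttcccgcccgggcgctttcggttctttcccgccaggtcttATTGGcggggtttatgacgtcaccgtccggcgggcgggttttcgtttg
Hist1h4h: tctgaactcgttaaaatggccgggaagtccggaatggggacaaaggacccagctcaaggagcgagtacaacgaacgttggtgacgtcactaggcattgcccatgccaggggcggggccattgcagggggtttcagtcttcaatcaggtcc
The window of Hist1h4h held none of the 4 motifs. Of the 10 members called higher after CCl4 in wild type, 9 had CCAAT and 7 had TATAAA, against 31 and 23 of all 41 matched members. Among the 6 most abundant, 4 and 2 of the 5 matched members had them, and these 5 include the H4 genes Hist1h4h, Hist1h4d and Hist1h4c. These sets differ in class, and a link between motif and change was not tested.

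The libraries held 7306082 (KO_Oil 11) to 14116886 (WT_CCL4 4) counts on genes, and the members together took 3331 (KO_CCL4 24) to 7889 counts (WT_CCL4 4). Of the 47 members 44 had enough counts to be tested, and Hist2h3c2, Hist1h2ae and Hist1h2al did not. Hist1h3d, Hist1h3h and Hist1h2bf passed that filter only through WT_CCL4. Besides WT_CCL4, Hist1h2bh, Hist1h2bm and Hist1h2bj reached its level only in KO_Oil 11, and Hist1h2bl only in KO_CCL4 25. These too could not have passed without WT_CCL4. Members resemble each other: in the 45 with a transcript, a median of 45.8% of the 50-base stretches also occur in another gene, and the share is over 50% in 18. Reads of such members may have been divided among near-identical genes, so values of single H2B, H3 and H4 genes are uncertain, while Hist1h1a and Hist1h1b share 0 such stretches. Hist1h2ab, Hist1h2ac, Hist1h2ak, Hist2h2ac, Hist3h2a and Hist1h4b overlap another gene, and their counts may include that gene's reads. The targeted gene follows the labels: Hmgb2 lay at 1.93 to 7.42 CPM (counts scaled to TMM-adjusted library size) in wild type and at 0 to 0.951 CPM in Hmgb2-/- liver.

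Most of the histone signal came from a few genes. Hist1h2bc (ENSMUSG00000018102, chromosome 13, 23684199 to 23692488, plus strand), a replication-dependent H2B gene, had the highest mean, 91.6 CPM over the 11 libraries, and also the highest level per length, 124.5 CPM per kb. Hist1h1c and Hist1h1e, the linker histones H1.2 and H1.4, followed with means of 82.0 and 71.2 CPM, or 52.6 and 95.2 CPM per kb. The H4 genes Hist1h4h, Hist1h4d and Hist1h4c had 51.8, 45.9 and 37.1 CPM, or 109.5, 116.9 and 94.0 CPM per kb. Hist1h1d (H1.3) came next with 12.6 CPM, a clear step below these 6, and then Hist2h4, Hist1h3e, Hist1h3f, Hist2h2ac and Hist4h4 with 10.9 to 6.16 CPM. No other member averaged above 5.86 CPM. In WT_Oil the 6 most abundant genes held 80.5% to 82.7% of the summed histone CPM.

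The testis genes Hist1h1t, Hist1h2aa and Hist1h2ba were among 12 further histone genes that the authors listed as under 10 counts. Hist1h1c, Hist1h2bc and Hist2h2be, the examples named above of members known to also make polyadenylated mRNA, had no call in any of the comparisons below. The other members were not sorted by this trait.

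**Figure D1:**
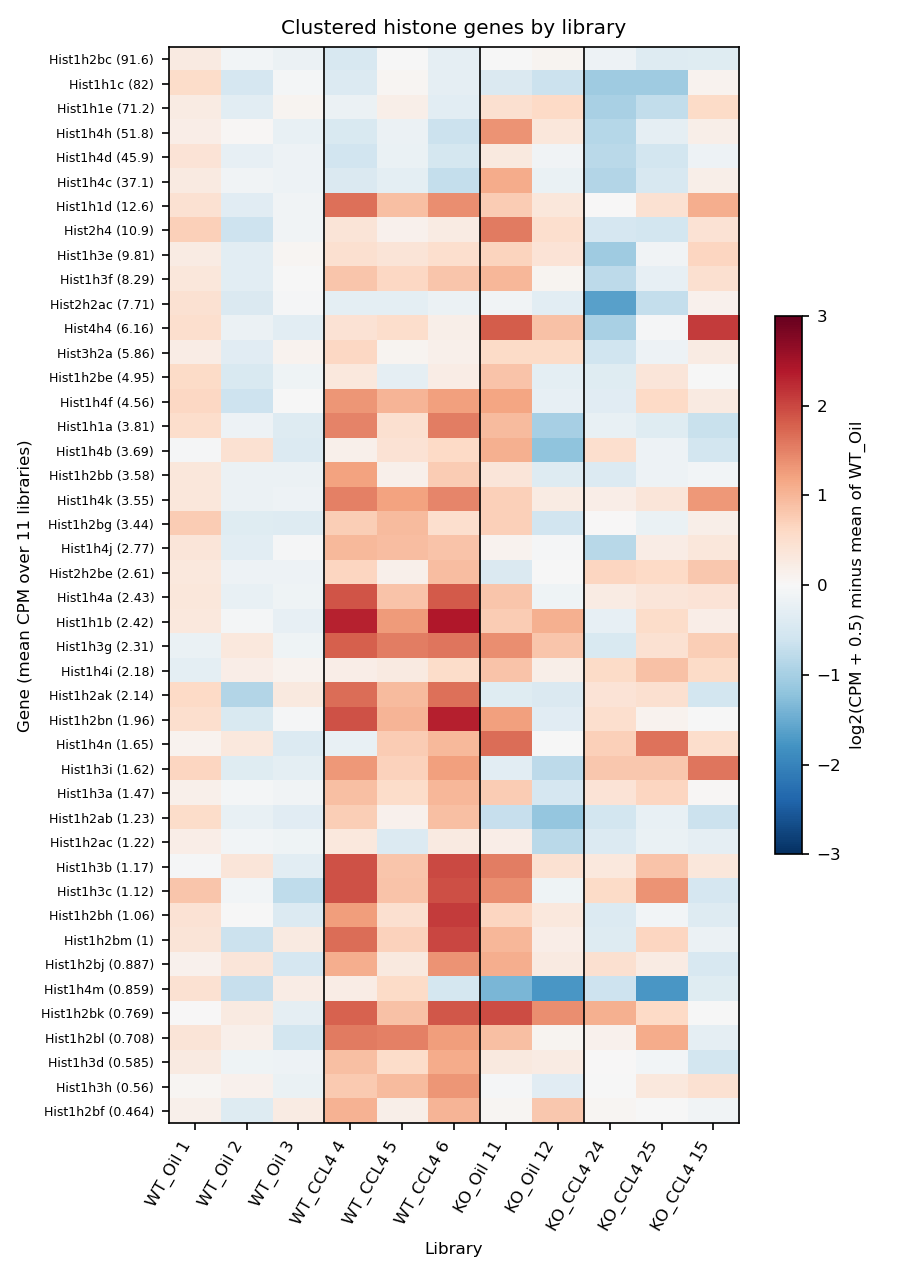
Colour gives log2(CPM + 0.5) of each of the 44 tested members (rows, ordered by mean CPM, which stands in parentheses) in each of the 11 libraries (columns), minus the gene's mean over WT_Oil. The 6 most abundant genes at the top are pale in WT_CCL4, most others are red there, and KO_Oil 11 is redder than KO_Oil 12.

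After CCl4 in wild-type liver, 10 of the 44 tested members rose and 0 fell (edgeR quasi-likelihood test, adjusted p below 0.05 over all tested genes). Over all 16866 tested genes 6.98% rose and 1.51% fell. At an unadjusted p below 0.05, 25 members were higher, against 15% of all genes, and 0 lower, against 8.14%. The members' median log2 fold change was 0.957, against -0.019 over all tested genes, and 37 were positive and 7 negative. Without Hist1h3d, Hist1h3h and Hist1h2bf, which passed the filter only through WT_CCL4, 9 of 41 were called and the median was 0.792. Hist1h2bh, Hist1h2bm, Hist1h2bj and Hist1h2bl, which also needed WT_CCL4 to pass, are still among these 41, and Hist1h2bh is among the 9. All of these, and Hist1h3d, Hist1h3h and Hist1h2bf, are among the 25 above, and for them the filter favoured this direction. Among the 13 members with a mean of at least 5 CPM, tested alone under that filter, the median was -0.036. For 21 members every WT_CCL4 library lay above every WT_Oil library (17.1% of all genes), and for 1 every library lay below (11.7%). The 21 include Hist1h3d, Hist1h3h, Hist1h2bh, Hist1h2bm and Hist1h2bl, which needed WT_CCL4 to pass the filter. In bulk liver, fewer or more cells of a type and less or more RNA per cell cannot be told apart.

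Among the linker histones, Hist1h1b (ENSMUSG00000058773, chromosome 13, 21779883 to 21780625, minus strand), which encodes H1.5, had 1.25, 0.838 and 0.682 CPM in WT_Oil and 6.47, 2.88 and 6.88 CPM in WT_CCL4. The groups did not overlap, and WT_CCL4 5 was lowest of the CCl4 libraries. Its log2 fold change was 2.56 with SE 0.42 and an edgeR adjusted p of 0.00334, from 11, 11 and 7 reads to 103, 33 and 73. It kept its call in all 18 alternative settings in which it was tested. Hist1h1d had 10.3, 5.72 and 6.82 CPM in WT_Oil and 24.4, 14.2 and 20.2 CPM in WT_CCL4, or 1.38 on the log2 scale (SE 0.31, edgeR adjusted p = 0.0179). Hist1h1a, which encodes H1.1, had 4.09, 2.36 and 1.95 CPM against 8.49, 3.93 and 8.66 CPM, and here WT_CCL4 5 overlapped the oil range. Its log2 fold change of 1.35 (SE 0.47) did not pass (edgeR adjusted p = 0.101). The more abundant Hist1h1c had 145, 69.6 and 94.3 CPM against 73.7, 103 and 81.7 CPM, and Hist1h1e 81.7, 55.3 and 72.7 against 61.1, 77.4 and 55.4 CPM. Both overlapped between the groups.

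Of the core histone genes, 3 H2B, 3 H3 and 2 H4 members rose, and 0 of the 5 tested H2A members. Hist1h3g had 0.795, 1.37 and 0.877 CPM in WT_Oil and 4.71, 3.84 and 4.05 CPM in WT_CCL4, and this H3 gene is one whose WT_CCL4 5 value was close to the others. Its log2 fold change was 2.01 (SE 0.39, adjusted p = 0.00911, edgeR). The H4 gene Hist1h4a had 1.70, 0.991 and 1.07 CPM against 5.91, 2.62 and 5.65 CPM, or 1.93 on the log2 scale (SE 0.40, edgeR adjusted p = 0.0112). Hist1h4k, also H4, had 2.5, 1.6 and 1.66 CPM against 6.35, 4.97 and 6.12 CPM, or 1.61 on the log2 scale (SE 0.35, edgeR adjusted p = 0.0146). All WT_CCL4 values of these 3 genes lay above all WT_Oil values. Of the scarcer genes, Hist1h3b (H3) had 0.341, 0.610 and 0.195 CPM against 2.77, 1.05 and 2.92 CPM, a log2 fold change of 2.47 (edgeR adjusted p = 0.0208). Hist1h2bn (H2B) had 12, 6 and 8 reads against 71, 25 and 65, a log2 fold change of 2.34 (edgeR adjusted p = 0.0212). Hist1h2bk (H2B) had only 1, 3 and 0 reads in WT_Oil and 25, 7 and 18 in WT_CCL4, so its log2 fold change of 3.29 (SE 0.79, edgeR adjusted p = 0.0244) has a thin base. The remaining calls were Hist1h2bh (1.99, adjusted p = 0.0430) and Hist1h3h (1.83, adjusted p = 0.0379). Hist1h3h entered the test only because it was high enough in WT_CCL4, so its direction there was fixed by the filter. Hist1h2bh also needed WT_CCL4 to enter, which favoured the same direction. In sequence, 94% of the stretches of Hist1h3h and 86.4% of those of Hist1h2bn occur in other genes, which limits what their own counts show.

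Just outside the threshold lay 3 scarce members. The H2A gene Hist1h2ak had 19, 6 and 17 reads in WT_Oil and 82, 33 and 54 in WT_CCL4, and its log2 fold change of 1.67 (SE 0.48) had an edgeR adjusted p of 0.0517. Hist1h2bm, an H2B gene, had 6, 1 and 6 reads against 38, 11 and 33 (2.33, SE 0.69, edgeR adjusted p = 0.0562). Hist1h2bl, also H2B, had 4, 4 and 0 reads against 26, 18 and 13 (2.52, SE 0.77, edgeR adjusted p = 0.0640). In all 3 the lowest WT_CCL4 library was above the highest WT_Oil library. Hist1h2bm and Hist1h2bl needed WT_CCL4 to pass the filter, which favoured this direction.

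Further members among the 12 most abundant had smaller differences than Hist1h1d. The H3 gene Hist1h3f had 8.17, 5.03 and 6.33 CPM in WT_Oil and 11.7, 10 and 11.9 CPM in WT_CCL4, and Hist1h3e, also H3, had 9.88, 6.48 and 8.57 against 11.6, 10.9 and 11.8 CPM. Neither gene overlapped between the groups, yet the log2 fold changes of 0.79 (SE 0.33, edgeR adjusted p = 0.166) and 0.47 (SE 0.34, edgeR adjusted p = 0.441) did not pass. Hist2h4 had 14.4, 5.41 and 7.89 CPM against 11.2, 9.34 and 10.2 CPM, and Hist2h2ac 12.7, 6.71 and 8.96 against 7.42, 7.33 and 8.01 CPM. In both of these the WT_CCL4 values fell inside the WT_Oil range.

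**Figure D2:**
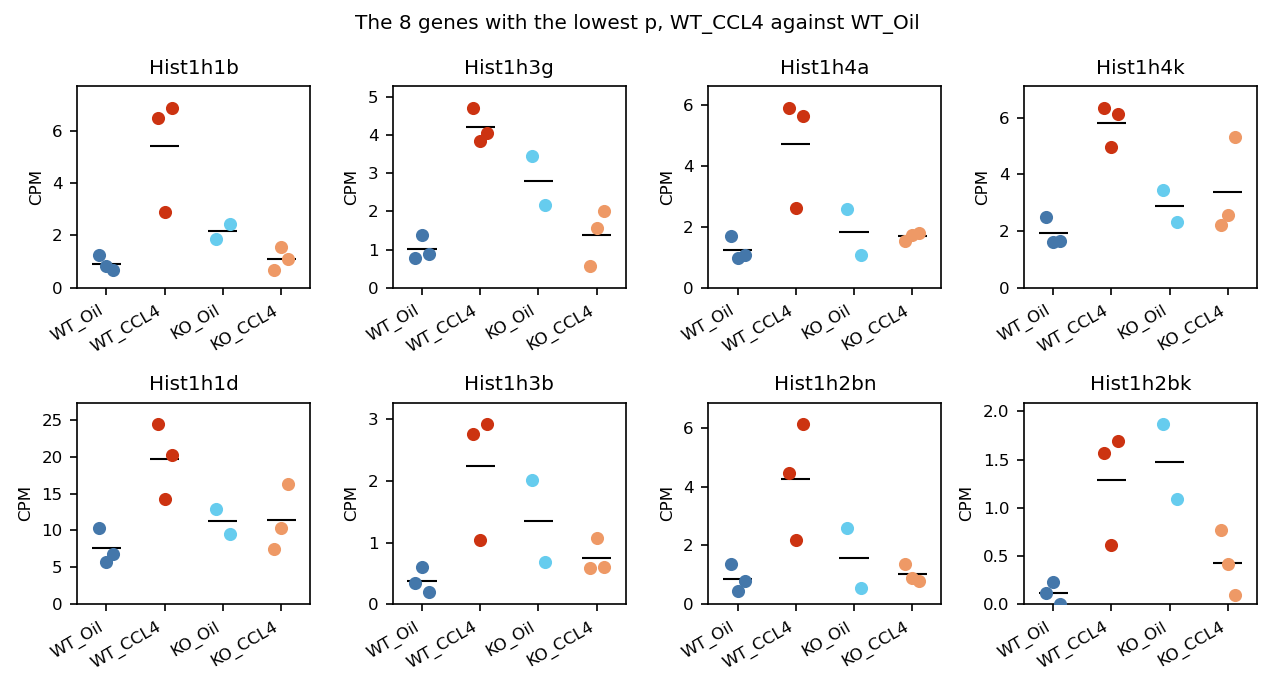
Each panel gives the CPM per library (points) and the group mean (line) of one of the 8 members with the lowest p for WT_CCL4 against WT_Oil. In all 8 the WT_CCL4 points lie above the WT_Oil points, with WT_CCL4 5 the lowest of the 3 WT_CCL4 points, and the KO_CCL4 points stay under the highest WT_CCL4 point.

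The change went with the level of the gene. All 6 most abundant members had negative log2 fold changes, from -0.49 to -0.11, and none was called. Without WT_Oil 1, the highest of its group, 4 of the 6 were negative. Of the 38 tested members among the other 41, 37 were positive and 1, Hist2h2ac, was negative, with a median of 1.30. The 38 include Hist1h3d, Hist1h3h, Hist1h2bf, Hist1h2bh, Hist1h2bm, Hist1h2bj and Hist1h2bl, which needed WT_CCL4 to pass the filter. The filter thus favoured positive values among scarce members. With no filter, 40 members were positive and 7 negative, and all 6 most abundant were again negative. The class medians were 1.34 for H1, 0.33 for H2A, 1.54 for H2B, 1.52 for H3 and 0.39 for H4. By position, all 14 members of the first stretch of chromosome 13 were positive (median 1.64, 5 called), and those of the second stretch, where the 6 most abundant genes lie, had a median of 0.79 with 19 of 25 positive and 5 called. These are descriptions, and no difference between the classes or positions was tested.

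**Figure D3:**
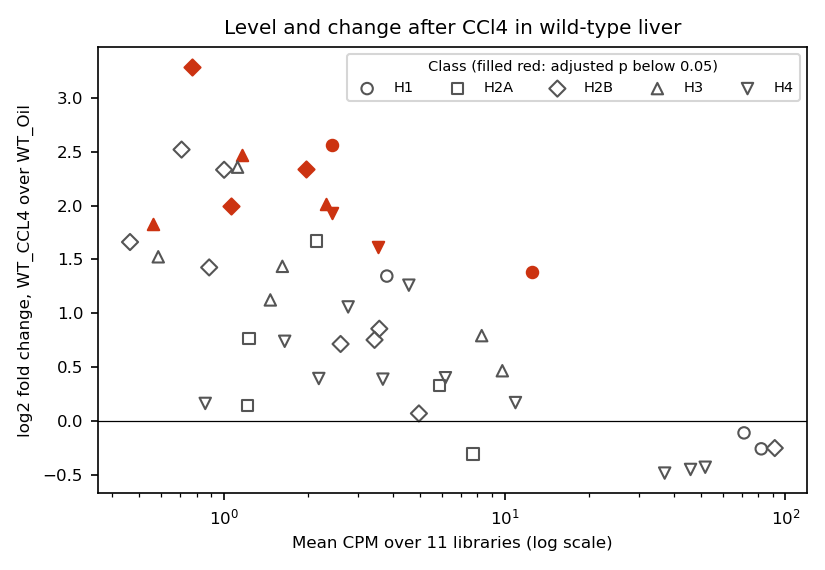
Each point is one of the 44 tested members, with its mean CPM over the 11 libraries (log scale) on the x axis and its log2 fold change of WT_CCL4 over WT_Oil on the y axis. The shape gives the histone class and filled red points were called. The 6 genes at 37.1 CPM or more lie below 0, and the 10 called genes lie between 0.56 and 12.6 CPM.

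In sums, the histone total was nearly level in wild type while its makeup moved. All members together had 510 ± 119 CPM (SD, n = 3) in WT_Oil and 511 ± 23.3 CPM (n = 3) in WT_CCL4. The other 41 members had 125.6, 72.9 and 82.7 CPM in WT_Oil and 190.5, 137.4 and 187.1 CPM in WT_CCL4, a ratio of means of 1.83 with no overlap. The 6 most abundant had 519.7, 349.0 and 379.9 CPM against 305.4, 400.2 and 311.8 CPM, which overlap, so their share of the total went from 80.5% to 82.7% in WT_Oil to 61.6%, 74.4% and 62.5% in WT_CCL4 4, 5 and 6. H3 was the class whose sum lay apart, with 24.2, 16.4 and 18.3 CPM in WT_Oil and 40.8, 32.8 and 41.6 CPM in WT_CCL4. The H1 sums (184 ± 54.9 and 183 ± 15.9 CPM, n = 3 each), H2B sums (117 ± 22.7 and 117 ± 8.26 CPM) and H4 sums (170 ± 35.1 and 150 ± 12.6 CPM) differed by less than the spread of WT_Oil. No test was made of the sums.

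**Figure D4:**
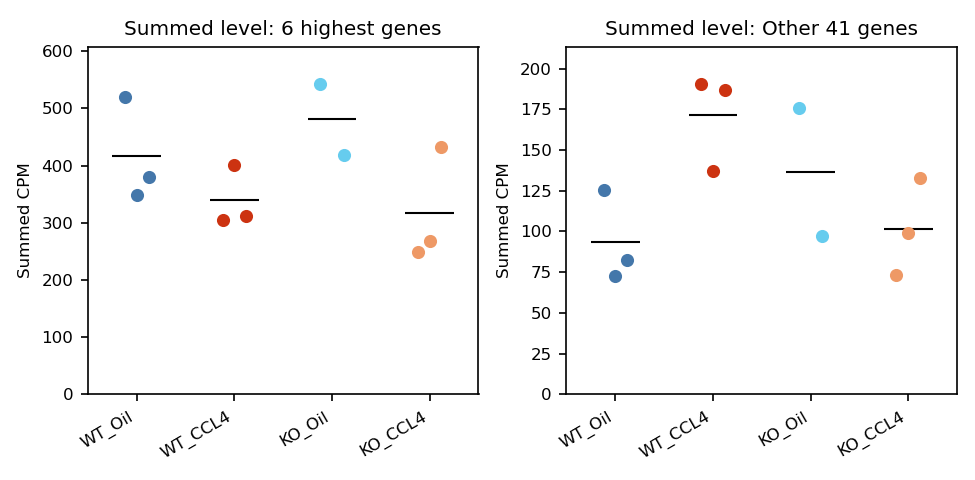
Points give the summed CPM per library of the 6 most abundant members (left) and of the other 41 (right), and lines give the group means. On the right the 3 WT_CCL4 points, at 137.4 to 190.5 CPM, lie above the 3 WT_Oil points, at 72.9 to 125.6 CPM, and KO_Oil 11 reaches 175.6 CPM.

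Which libraries entered decided much of the count of 10. When WT_Oil 2 was left out 3 members were called, and 1 when WT_Oil 3 was. Leaving out WT_CCL4 4 or WT_CCL4 6 gave 2, and leaving out WT_CCL4 5 gave 15. Adjusting for the GC content and length of transcripts gave 16 calls, and GC content was 56.1% at the median of 42 tested members against 49.2% over 16810 tested genes. By the authors' deposited table, as many as 14 members were higher, 9 of them among these 10, against 9.73% of all genes passing in either direction.

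Genes that work with histones were listed by role. Of 15 tested genes of histone mRNA supply and end processing, 0 were called in this comparison (median log2 fold change -0.022). Slbp, whose product binds the stem-loop, had 10.1 to 13.7 CPM in WT_Oil and 13.4 to 14.1 CPM in WT_CCL4, and Npat, which activates histone gene transcription, 7.83 to 17.2 and 11.9 to 19.2 CPM. Among 17 chaperone genes 1 rose, Asf1b, an H3 and H4 chaperone of dividing cells (log2 fold change 1.957, edgeR adjusted p = 0.0459). Asf1b passed the filter only through WT_CCL4, so its direction was fixed by the filter, and its call was lost in 7 of 18 alternatives. Among 10 tested histone genes outside the clusters, which are made independently of replication, Cenpa, the centromeric H3, rose (log2 fold change 1.87, SE 0.30, edgeR adjusted p = 0.00311), as did H2afz, which encodes the variant H2A.Z (0.80, SE 0.20, adjusted p = 0.0314). H1f0, the linker histone of resting cells, had 103 to 125 CPM in WT_Oil and 87.6 to 102 CPM in WT_CCL4, and H3f3b, an H3.3 gene, 119 to 159 and 117 to 123 CPM.

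Genes of the cell cycle moved alongside. Of 30 S phase genes 7 rose, among them Mcm5, Mcm6, Cdc6 and Uhrf1, and 1, Mcm10, fell (median 0.902). Cdc6 passed the filter only through WT_CCL4, and Uhrf1 also needed WT_CCL4 to pass, so the filter favoured their rise. The sliding clamp gene Pcna had 18.0 to 20.3 CPM in WT_Oil and 18.1 to 28.2 CPM in WT_CCL4. Of 20 mitotic genes 17 rose (median 2.77), and their summed level was 25.1, 34.1 and 30.8 CPM in WT_Oil and 297, 85.3 and 255 CPM in WT_CCL4 4, 5 and 6. Among the 17, Plk1 passed the filter only through WT_CCL4, and Ccnb1 and Cenpe also needed WT_CCL4 to pass. Mki67, a marker of cycling cells, had 2.04, 3.43 and 3.99 CPM against 86.2, 10.6 and 52.9 CPM, or 3.97 on the log2 scale (SE 0.71, edgeR adjusted p = 0.00576). WT_CCL4 5 was thus the lowest of its group for Mki67 and also for Hist1h1b, Hist1h4a and Hist1h1d.

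Markers of other cells moved too. Macrophage markers rose in 5 of 10 (summed level 508 to 745 CPM in WT_Oil and 999 to 1489 CPM in WT_CCL4) and stellate cell and fibroblast markers in 6 of 8 (405 to 473 and 876 to 2176 CPM). Lymphocyte markers rose in 3 of 10 (22.8 to 37.9 and 49.3 to 83.9 CPM) and neutrophil markers in 3 of 5 tested (0.974 to 3.28 and 7.29 to 23.9 CPM). Of the hepatocyte (8 tested), endothelial (7) and erythroid (7) markers 0 were called. No listed marker in the table was at 0 in all libraries, while Ly6g was at 0 in 2 WT_Oil libraries. The part of the cell cycle genes and of these cell types in the histone values was not tested.

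After CCl4 in Hmgb2-/- liver, 0 of 44 members were called by edgeR (0.652% of all tested genes in either direction). At an unadjusted p below 0.05, 2 were higher (7.26% of all genes) and 7 lower (5.78%), and DESeq2 called 1. The median log2 fold change was -0.383, against 0.015 over all tested genes, with 10 positive and 34 negative. The lowest p belonged to Hist1h4h, with 125 and 62.4 CPM in KO_Oil and 27.0, 40.8 and 55.8 CPM in KO_CCL4. The groups did not overlap, and its log2 fold change was -1.19 (SE 0.31, edgeR adjusted p = 0.111), or -0.59 without KO_Oil 11. Hist1h3i, an H3 gene, had 4 and 2 reads in KO_Oil and 19, 22 and 35 in KO_CCL4, or 2.47 on the log2 scale (SE 0.66, edgeR adjusted p = 0.126), and 87.6% of its stretches occur in other genes. The H4 gene Hist2h4 had 26.1 and 12.4 CPM against 5.90, 5.69 and 11.7 CPM (log2 fold change -1.32, SE 0.42, edgeR adjusted p = 0.196). In the authors' deposited table Hist1h3i passed as higher and Hist1h4h as lower.

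Of the members called in wild type, Hist1h1b had 1.87 and 2.45 CPM in KO_Oil and 0.677, 1.57 and 1.11 CPM in KO_CCL4, and Hist1h3g 3.45 and 2.17 CPM against 0.580, 1.57 and 2.01 CPM. In both genes every CCl4 library lay below every oil library. Hist1h1d had 12.9 and 9.51 CPM against 7.45, 10.3 and 16.3 CPM, which overlap. Over all members, every KO_CCL4 library was above every KO_Oil library for 4 (15.6% of all genes) and below for 10 (14.0%). Of the mitotic list 0 of 20 were called in this comparison, and Mki67 had 8.04 and 3.81 CPM against 4.55, 12.4 and 2.72 CPM. Without KO_Oil 11 the members' median was 0.194, with 27 positive and 19 negative of the 46 members then tested, so its sign rests on that library. It was -0.741 without KO_Oil 12 and -0.216 without KO_CCL4 24.

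Between the genotypes after oil, 1 of 44 members was called, Hist1h2bk, which was higher in the knockout (2.19% of all tested genes were higher and 1.92% lower). It had 1, 3 and 0 reads in WT_Oil and 13 and 8 in KO_Oil, or 3.46 on the log2 scale (SE 0.88, edgeR adjusted p = 0.0466), and the call was lost without any single library of either group. The median over members was 0.565, against 0.011 over all tested genes, -0.032 without KO_Oil 11 and 0.944 without KO_Oil 12. Lymphocyte markers were higher in 2 of 10 (summed level 22.8 to 37.9 CPM in WT_Oil, 56.8 and 58.9 CPM in KO_Oil) and 1 of 8 hepatocyte markers, Cyp2c29, was higher, and their part in the histone values was not tested. All KO_Oil values lay above all WT_Oil values for 9 members (19.7% of all genes) and below for 2 (19.2%). In the authors' deposited table Hist1h2bk and Hist1h4h passed as higher and Hist1h4m as lower.

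KO_Oil 11 stood apart from KO_Oil 12 in the H4 and H3 sums and in scarce members of other classes. The H3 sum was 37.9 CPM in KO_Oil 11 and 22.6 CPM in KO_Oil 12, against 16.4 to 24.2 CPM in WT_Oil. Hist1h1a had 5.60 and 1.09 CPM and Hist1h2bn 2.58 and 0.544 CPM in these libraries. The H4 sum was 343 CPM in KO_Oil 11 and 175 CPM in KO_Oil 12, against 210.7, 152.4 and 147.9 CPM in WT_Oil. Hist1h4h had 56.2, 50.4 and 41.9 CPM in WT_Oil, so both KO_Oil libraries (125 and 62.4 CPM) lay above, KO_Oil 12 by little. Its log2 fold change was 0.92 (SE 0.31, edgeR adjusted p = 0.111), or 0.34 without KO_Oil 11. Hist1h4c had 83.7 CPM in KO_Oil 11 and 33.6 CPM in KO_Oil 12, the latter below all of WT_Oil. Hist4h4, the H4 gene on chromosome 6, had 13.6 and 6.93 CPM in KO_Oil, 5.22, 3.05 and 2.73 CPM in WT_Oil, and 16.8 CPM in KO_CCL4 15 against 1.55 and 3.46 CPM in KO_CCL4 24 and 25. Hist1h1e had 96.3 and 105 CPM in KO_Oil, here with KO_Oil 12 the higher, and 34.6, 41 and 103 CPM in KO_CCL4 24, 25 and 15.

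Some other RNA without a poly(A) tail varied between the same libraries. Of 16 tested genes of such RNA 5 were called higher in KO_Oil than in WT_Oil, Scarna6, Snord118, Snord17, Rnu11 and Rn7s2 (median of the list 1.17). The minor spliceosomal RNA gene Rnu12 had 121, 64.5 and 81.8 CPM in KO_Oil 11, KO_Oil 12 and KO_CCL4 15, and 12.5 to 27.4 CPM in the other 8 libraries. Snord17, a small nucleolar RNA gene, had 908, 407 and 294 CPM in those 3 libraries, and 81.6 to 229 CPM in the others. The summed level of the list, which the long RNA genes Malat1 and Neat1 belong to as well, overlapped between WT_Oil (3353 to 6558 CPM) and KO_Oil (4815 and 7667 CPM). The part of this in the histone values of KO_Oil and KO_CCL4 was not tested.

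**Figure D5:**
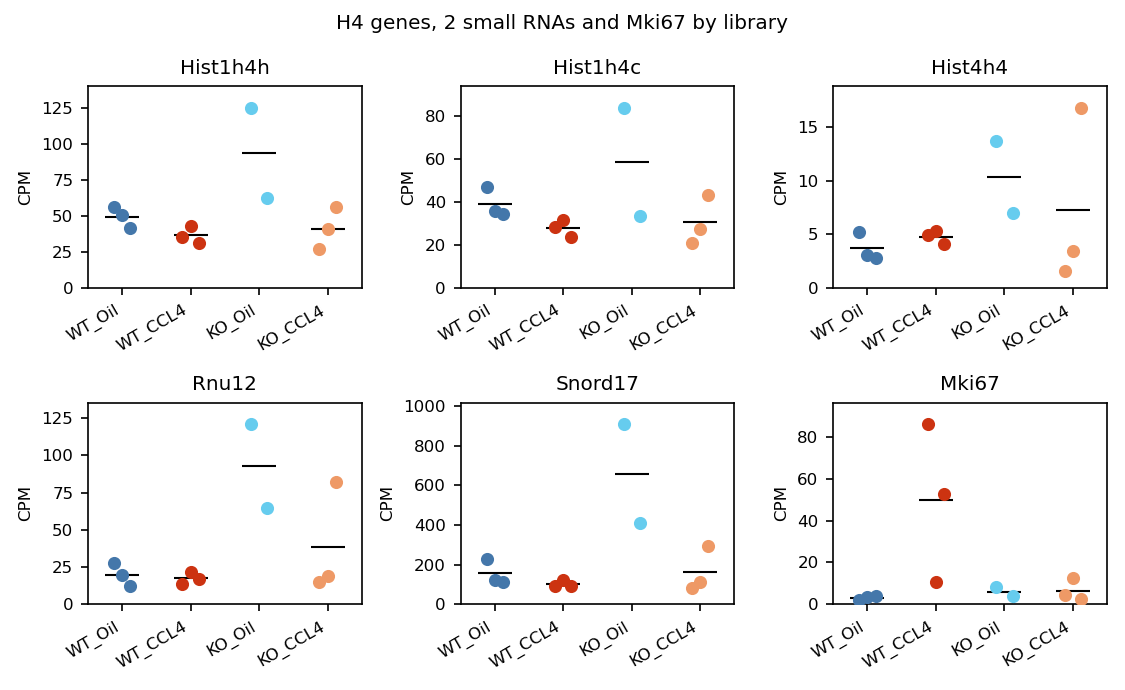
Points give the CPM per library, and lines the group means, of the H4 genes Hist1h4h, Hist1h4c and Hist4h4, of the RNA genes Rnu12 and Snord17 and of Mki67. In the first 5 panels the upper KO_Oil point is KO_Oil 11 and the upper KO_CCL4 point is KO_CCL4 15, and in the Mki67 panel 2 WT_CCL4 libraries, at 86.2 and 52.9 CPM, lie above all others.

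Between the genotypes after CCl4, 1 of 44 members was called, Hist1h1b, which was lower in the knockout (0.889% of all tested genes were lower and 0.308% higher). It had 6.47, 2.88 and 6.88 CPM in WT_CCL4 and 0.677, 1.57 and 1.11 CPM in KO_CCL4, with no overlap. The log2 fold change was -2.25 with SE 0.40 and an edgeR adjusted p of 0.0252. The call was lost without WT_CCL4 4, WT_CCL4 6, KO_CCL4 24 or both libraries titled E, where the log2 fold change was -2.26. At an unadjusted p below 0.05, 21 members were lower, against 9.93% of all genes, and 0 higher, against 6.78%. All KO_CCL4 values lay below all WT_CCL4 values for 18 members (11.4% of all genes) and above for 1 (9.25%). The median was -0.878, against -0.002 over all tested genes, -0.748 without both libraries titled E and -0.376 among the 13 members tested under the filter of 5 CPM. Without Hist1h3d, Hist1h3h and Hist1h2bf, which passed the filter only through WT_CCL4, it was -0.795, with 7 positive and 34 negative. Hist1h2bh, Hist1h2bm, Hist1h2bj and Hist1h2bl, which also needed WT_CCL4, are still in that median. Hist1h3d, Hist1h3h, Hist1h2bf, Hist1h2bh, Hist1h2bm and Hist1h2bl are in both the 21 and the 18 above, and for these the filter favoured this direction.

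The members next to the threshold were again scarce ones. Hist1h2bh (H2B) had 2.01, 0.960 and 3.96 CPM in WT_CCL4 and 0.290, 0.495 and 0.302 CPM in KO_CCL4, or -2.60 on the log2 scale (SE 0.58, edgeR adjusted p = 0.0532). Hist1h2bh needed WT_CCL4 to pass the filter, which favoured this direction. Hist1h3g had 4.71, 3.84 and 4.05 CPM against 0.580, 1.57 and 2.01 CPM (-1.59, SE 0.38, edgeR adjusted p = 0.0634). Hist1h4a had 5.91, 2.62 and 5.65 CPM against 1.55, 1.73 and 1.81 CPM (-1.48, edgeR adjusted p = 0.0785). These groups did not overlap. Hist1h1a had 8.49, 3.93 and 8.66 CPM against 2.23, 1.98 and 1.51 CPM (-1.88, edgeR adjusted p = 0.0802). The 6 most abundant members had a median of -0.061, and the other 38 tested members one of -1.10 with 33 negative. The 38 include the members that needed WT_CCL4 to pass the filter, which favoured negative values here. In the authors' deposited table Hist1h1b, Hist1h2bn, Hist1h3g, Hist1h2bh and Hist1h1a passed as lower. This comparison shares the WT_CCL4 libraries with that of CCl4 and oil in wild type, so both read the same high values. Of the mitotic list 9 of 20 fell here, with a summed level of 297, 85.3 and 255 CPM in WT_CCL4 and 41.5, 64.0 and 32.1 CPM in KO_CCL4. Among the 9, Plk1 and Ccnb1 needed WT_CCL4 to pass the filter. Of the macrophage markers 1 of 10 fell, Cd68 (median of the list -0.83), and the summed level was 999 to 1489 CPM in WT_CCL4 and 534 to 909 CPM in KO_CCL4. Of 5 tested neutrophil markers 0 were called (median -1.87), with 7.29 to 23.9 and 7.74 to 15 CPM in sum. The part of these in the histone values was not tested.

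Whether the response to CCl4 differed between the genotypes was tested as an interaction. By edgeR 0 of 44 members passed (0.101% of all tested genes in either direction), while DESeq2 called 4 as lower. At an unadjusted p below 0.05, 19 were negative, against 8.0% of all genes, and 0 positive, against 5.74%. The 19 include Hist1h3d, Hist1h2bf, Hist1h2bh, Hist1h2bm and Hist1h2bj, which needed WT_CCL4 to pass the filter. For these the filter favoured negative values. The median was -1.07 against 0.009 over all tested genes, with 5 members positive and 39 negative. Without Hist1h3d, Hist1h3h and Hist1h2bf, which passed the filter only through WT_CCL4, it was -1.05, with 5 positive and 36 negative. Hist1h2bh, Hist1h2bm, Hist1h2bj and Hist1h2bl, which also needed WT_CCL4, are still in that median. Over all tested members, the median was -0.706, with 15 positive and 31 negative, without KO_Oil 11, and -1.55 without KO_Oil 12. The lowest p belonged to Hist1h1b, with an interaction of -3.49 on the log2 scale (SE 0.65, edgeR adjusted p = 0.0662). Hist1h3g had -3.02 (SE 0.60, edgeR adjusted p = 0.0762) and Hist1h2bk -5.03 (SE 1.09, adjusted p = 0.0887). Without WT_CCL4 5 the count was 5, so a difference in response was neither shown nor shown to be absent at this number of libraries.

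Hist2h2be, an H2B gene that is known to make polyadenylated mRNA, was not called in any comparison. It had 2.5, 1.68 and 1.66 CPM in WT_Oil and 3.27, 2.18 and 4.05 CPM in WT_CCL4, a log2 fold change of 0.71 (edgeR adjusted p = 0.180). In the knockout it had 1.29 and 1.90 CPM after oil and 3.29, 3.13 and 3.72 CPM after CCl4, with no overlap and a log2 fold change of 1.07 (edgeR adjusted p = 0.237). None of its 50-base stretches occurs in another gene. Hist1h2bc had 120, 94.1 and 89.1 CPM in WT_Oil, 71.4, 99.6 and 83.6 CPM in WT_CCL4, 98.9 and 107 CPM in KO_Oil and 90.0, 76.0 and 77.7 CPM in KO_CCL4, and it was not called either.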

How the data were processed

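RNA of 11 mouse liver samples in 4 groups was measured. Per the file headers the authors deposited raw counts per gene and library on mm10, with FPKM values, log2 ratios and adjusted p scores (a scaled negative log10 of an adjusted p-value) in the same table, and per the submitters' processing notes Bowtie and DESeq2 were used. Whether strand was used in counting, and how reads with several matches were treated, is not given in the sources used here, and the design text speaks of capped RNA and the protocol of a total RNA kit. The authors' log2 ratio was turned in sign so that a positive sign stands for more RNA after CCl4 or without Hmgb2.

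For the test, edgeR 4.0.16 in R 4.3.3 was run on the counts with its quasi-likelihood method, TMM scaling and filterByExpr (minimum count 10, minimum total 15), which left 16866 of 19207 genes and dropped 2341. A single model with 4 group means over the 11 libraries gave 5 contrasts, and genes were called at a Benjamini-Hochberg adjusted p below 0.05. No replicate number is shared between groups, so none were paired. The fit was tested on simulated data. Alternatives were RLE and upper-quartile scaling, no filter, a mean of at least 5 CPM, DESeq2 1.42.0, limma-voom (limma 3.58.1), only the groups compared, a GC and length spline offset with 5 degrees of freedom (GC known for 95.5% of tested members), each library left out and both libraries titled E left out. CPM, class sums and sequence matches were computed here, and 1-based starts are the file's starts plus 1. Named were the 12 most abundant members, up to 8 called members per contrast (else the 3 with the lowest p), all H1 genes and fixed further genes, and members beside these were chosen after their values were seen. The members and lists were chosen with earlier results of these data known.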

Additional observations from a re-analysis of the deposited data

How the results depend on the processing

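No paired analysis was possible because the groups share no replicate number. The direction held in every alternative for each member whose own log2 fold change is printed above, while among the 6 most abundant members, given by their range, 2 turned positive for CCl4 in wild type without WT_Oil 1. No scaling moved the median of all genes by over 0.1 on the log2 scale. Of the values compared, 763 stayed the same, 71 single-gene calls were lost and 48 gained, and 45 counts or sums moved, as follows. For CCl4 in wild type the count of 10 became 16 with the GC and length offset and 1 with a mean of at least 5 CPM, where only 13 members were tested. It ranged from 1 to 15 with one library left out. For CCl4 in the knockout the count of 0 became 1 with DESeq2 and ranged from 0 to 3 with one library left out. For the genotypes after oil the count of 1 became 0 with a mean of at least 5 CPM and 0 with limma-voom, and ranged from 0 to 2 with one library left out. For the genotypes after CCl4 the count of 1 became 3 with upper-quartile scaling, 3 with the offset, 6 with DESeq2 and 0 with each of limma-voom, only the groups compared, the 5 CPM filter and both libraries titled E left out, and ranged from 0 to 6 with one library left out. For the interaction the count of 0 became 4 with DESeq2, 1 with the offset and 1 without both libraries titled E, and ranged from 0 to 5 with one library left out. Beyond the smaller number of members or libraries tested, the cause was not tested. Leaving out members that overlap another gene took the H2A sum from 18.8 to 0.134 CPM in WT_Oil, from 22.7 to 0.703 in WT_CCL4, from 18.5 to 0.419 in KO_Oil and from 14.1 to 0.246 in KO_CCL4, so the H2A values rest almost wholly on such members. The sum of all members in WT_CCL4 was 511 CPM, 543.4 CPM with plain library totals and 484.5 CPM without overlapping members. Many members had under 20 reads in a library, which limits the precision of their folds, and groups of 2 or 3 libraries limit every test.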

Other observations

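The table also held 11 rows without a symbol that a reference table names as histone genes by Ensembl identifier, and they are not among the 47 members. Of these 6 were tested. For CCl4 in wild type, Hist2h2ab and Hist2h3c1 had log2 fold changes of -0.15 and -0.06 and Hist2h3b one of 0.73, and these were not called. Hist1h2ai, an H2A gene, was called higher after CCl4 in wild type (log2 fold change 3.07, edgeR adjusted p = 0.0314). It had 0, 1 and 4 reads in WT_Oil and 27, 14 and 13 in WT_CCL4. Hist1h2ai passed the filter only through WT_CCL4, so its direction there was fixed by the filter. Hist1h2af, also H2A, had a log2 fold change of 3.03 (edgeR adjusted p = 0.0753), and it too needed WT_CCL4 to pass the filter. Hist2h2bb, an H2B gene, had 43, 45 and 25 reads in WT_Oil, 158, 64 and 102 in WT_CCL4, 49 and 18 in KO_Oil and 22, 39 and 22 in KO_CCL4, with a log2 fold change of 1.24 in wild type (edgeR adjusted p = 0.0619). Scaled for depth, it had 4.88, 3.43 and 2.43 CPM in WT_Oil, 9.93, 5.58 and 9.61 CPM in WT_CCL4, 7.04 and 2.45 CPM in KO_Oil and 2.13, 3.22 and 2.21 CPM in KO_CCL4, so KO_Oil 11 lay above WT_CCL4 5.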
